A study of Homo sapiens with 12 samples.

Results

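U87TR and U251TR are temozolomide-resistant derivatives of the human glioblastoma lines U87MG and U251MG. Each derivative was obtained from its parent by repeated culture in rising concentrations of temozolomide, and each parent contributed 1 resistant line. The comparison set the 3 U87TR libraries against the 3 U251TR libraries, which are 6 of the 12 RNA-seq libraries in the series. The 3 U87MG and 3 U251MG libraries, from lines not selected with the drug, supplied the parental difference that is set beside each resistant one. The labels leave unsaid if a line's 3 libraries stem from independent cultures, and p-values therefore measure only their spread, which may be technical. U87TR libraries carry codes outside the number range that the other 9 libraries share, and that range and the line cannot be told apart. A gene entered the comparison when its deposited expression value, read as FPKM (fragments scaled to transcript length and library total), was 1 or more in at least 3 of the 6 resistant libraries, which 14691 of 31654 symbols did. At the edge of that rule, 121 genes had a third-highest value within 0.05 FPKM above the threshold and 131 missed it by at most 0.05 FPKM.

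Temozolomide methylates DNA, and its most toxic lesion sits on guanine, where the protein MGMT can reverse it directly. Cells that lack MGMT depend on mismatch repair to turn the lesion into a lethal signal, so loss of mismatch repair or gain of MGMT is a known route to resistance. In the sections that follow, a list is a set of genes with a shared role, and genes named beyond the size rules were chosen after their values were seen.

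Most of the transcriptome separated the resistant lines. By limma on log2(FPKM + 1) with Benjamini-Hochberg adjustment, 10897 genes, or 74.2%, had an adjusted p under 0.05. Of these, 3800 (25.9%) were higher in U87TR and 7097 (48.3%) were lower. In bulk RNA, fewer cells with a transcript and less of it per cell cannot be told apart. The difference was at least 2-fold on that scale for 4968 genes (33.8%), with 1663 (11.3%) higher and 3305 (22.5%) lower. For comparison, 10645 genes (72.5%) differed between the parents U87MG and U251MG, and 4545 (30.9%) did so by at least 2-fold. The surplus of lower genes depended on the scaling: the median gene sat at -0.28 on the log2 scale as deposited and at -0.02 after median-of-ratios scaling. Genes higher in U87TR made up 34.9% of the calls as deposited, 48.4% with median-of-ratios scaling and 47.7% with quantile normalization. Of the 14691 genes, median-of-ratios scaling gave 5187 higher and 5540 lower, against which list counts after that scaling are read. Values for gene groups below are read against that median of -0.28, and against a parental median of -0.08. In 80% of tested genes the U87TR and U251TR libraries did not overlap, so neither a single call nor a lack of overlap singles a gene out here. U87TR libraries alone carried 860 genes past the expression filter and U251TR libraries alone carried 1365, and those genes had to differ. Among the 12466 genes with at least 1 library of each line at the filter, 8689 were called and 3133 differed at least 2-fold.

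Most of the 2-fold line differences were already present in the parents. Across the 14691 genes the resistant and parental differences correlated with Pearson's r of 0.794 and Spearman's rho of 0.737, as a description over genes that are not independent replicates. A difference was said to persist when it was called and at least 2-fold in both contrasts with the same sign, which held for 2972 genes (20.2% of those tested). These were 59.8% of the 2-fold resistant differences and 65.4% of the 2-fold parental ones. The change in the difference, tested as an interaction, passed in 7063 genes (48.1%). A difference was said to appear when it was called at 2-fold in the resistant lines and not in the parents, and when this change also passed at 2-fold, which held for 850 genes (5.79%). The mirrored criterion, a parental difference that vanished, held for 644 genes (4.38%), and such a gene may still differ by less than 2-fold. The filter read the resistant libraries alone, so genes that reached it only in the parents could not count as vanished. With a filter of 1 FPKM in 3 of all 12 libraries, 851 genes appeared and 817 vanished. Another 64 genes (0.436%) reversed, with calls of opposite sign in the resistant and parental contrasts, and 1947 genes could be placed in no class because the change itself did not reach the criteria. As deposited, directions differed between classes. With U87TR higher 211 appeared, and with U87TR lower 639. Of the vanished differences, 434 had been higher in U87MG and 210 lower. The scaling bears on these counts, because the resistant median of -0.28 lay below the parental one of -0.08. After median-of-ratios scaling, 624 of the 850 appeared and 508 of the 644 vanished genes kept their class. A class is set by thresholds, so a gene near 2-fold can change class with the processing or when 1 library is left out, and genes named below are marked where leaving out 1 library did so.

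**Figure D1:**
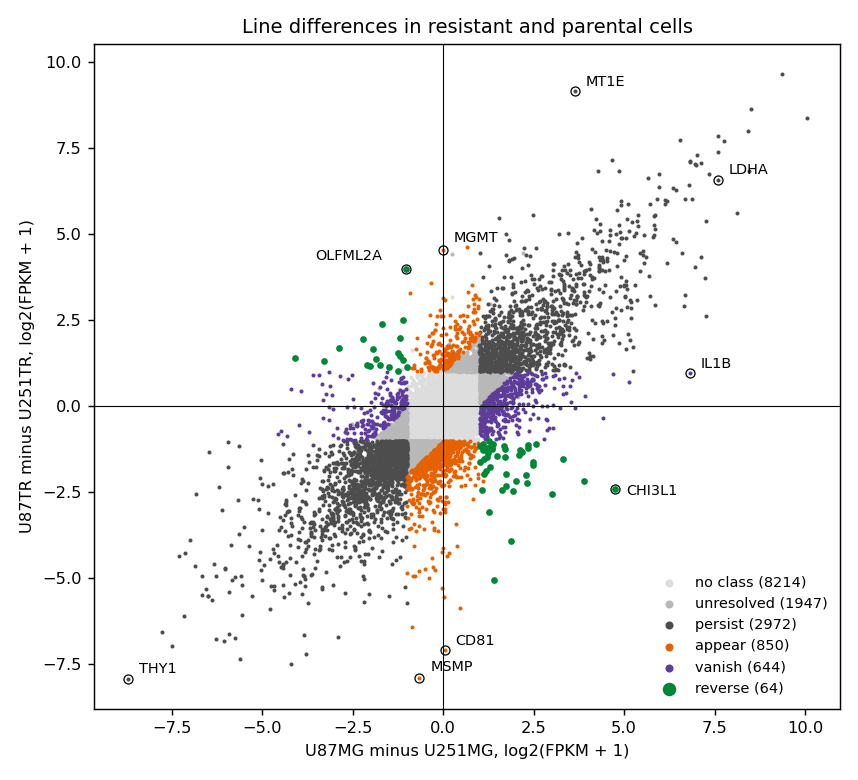
Each point is 1 of 14691 genes, with the U87MG minus U251MG difference on the x axis and the U87TR minus U251TR difference on the y axis, both in log2(FPKM + 1). Most coloured points lie along the rising diagonal (persist, dark grey), while MGMT, MSMP and CD81 lie near 0 on the parental axis and CHI3L1 lies in the opposite quadrant.

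Among vanished and reversed differences, the larger move from the parent was more often in U251TR than over all tested genes. Over all tested genes, the change from the parent was larger in U251TR than in U87TR for 64.8%. Among genes whose difference appeared the share was near that, at 596 of 850 (70.1%). It was 80.1% among vanished, 85.9% among reversed and 58.5% among persisting differences. At the same threshold, 727 genes (4.95%) differed at least 2-fold between U87TR and U87MG and 1965 (13.4%) between U251TR and U251MG. Each resistant library still ranked genes much like its own parent, with rho from 0.959 to 0.966 between U87TR and U87MG libraries and from 0.917 to 0.930 between U251TR and U251MG libraries. Between U87TR and U251TR libraries rho was 0.782 to 0.789, close to the 0.779 to 0.791 between U87MG and U251MG libraries.

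MGMT was the repair gene that separated the resistant lines most among those listed, and it was a difference that appeared. MGMT, the protein that removes the methyl group from guanine, measured 232, 227 and 213 FPKM in U87TR, against 8.73, 7.70 and 9.58 FPKM in U251TR. It was listed at 0 in all 6 parental libraries. Every resistant library stood above every parental one, and the U87TR libraries stood far above those of U251TR. The resistant difference was 4.54 ± 0.09 on the log2(FPKM + 1) scale (SE, n = 3 libraries per line, adjusted p = 1.0e-12, limma). As for every gene, the SE pools the spread of all 12 libraries, and the 6 parental ones, all at 0, add none here. The upstream sequence of MGMT is shown because methylation of CG dinucleotides around its start is a known switch of the gene, and CG is in capitals. These 250 bases, from RefSeq on GRCh38.p14 at chr10:129466991-129467240 on the plus strand, end at the base before the annotated start and hold 36 CG dinucleotides.
MGMT: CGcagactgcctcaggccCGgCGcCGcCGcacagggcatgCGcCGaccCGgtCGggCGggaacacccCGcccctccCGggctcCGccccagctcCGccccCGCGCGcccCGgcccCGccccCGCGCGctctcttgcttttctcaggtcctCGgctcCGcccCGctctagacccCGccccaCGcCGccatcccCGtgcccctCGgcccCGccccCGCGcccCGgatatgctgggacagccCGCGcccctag
The median upstream stretch of the same length held 21 CG dinucleotides over the 9827 tested genes with a RefSeq entry. No methylation was measured in these samples.

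The other repair genes differed less. Of 20 genes listed for repair of temozolomide lesions, 3 were called higher and 13 lower in U87TR, with a median of -0.52. That is 80% called, near the 74.2% of all genes, and the counts were 5 higher and 9 lower after median-of-ratios scaling. MSH6, a mismatch recognition protein, was higher in U87TR by 0.77 ± 0.14. PMS2, another mismatch repair protein, was lower in U87TR by a difference of -1.15 ± 0.08, which was already present in the parents at -1.22. XRCC1, the scaffold of base excision and single-strand break repair, appeared as a difference, at -1.03 ± 0.10 in the resistant lines and 0.30 in the parents, but fell short of 2-fold without U87TR replicate 1, at -0.97.

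Genes of glycolysis, through which cells turn glucose into lactate, and of the hypoxia response were mostly higher in U87TR. For most of them the parents already had that difference. Of 30 listed genes, 27 were called higher in U87TR and 0 lower, beside 25.9% and 48.3% of all genes. GPI, PFKM and EGLN3 did not pass. The list median was 1.83, against 1.42 in the parental contrast and -0.28 over all genes. Of the 30, 17 persisted, beside 20.2% of all genes. Quantile normalization gave 27 higher and 1 lower. LDHA, which makes lactate, measured 2321, 2133 and 2091 FPKM in U87TR, against 20.1, 23 and 22.9 FPKM in U251TR. The separation was of the same kind in the parents, with 1563, 1874 and 3073 FPKM in U87MG, against 7.67, 13.6 and 8.99 FPKM in U251MG. CA9, a hypoxia-induced carbonic anhydrase at the cell surface, measured 273, 227 and 228 FPKM in U87TR, against 1.75, 1.74 and 2.34 FPKM in U251TR. The 3 U87MG libraries spread widely for CA9, at 28.1, 55.3 and 310 FPKM, with replicate 3 highest. SLC16A3, a lactate exporter, was higher in U87TR by 3.82 ± 0.38, the glycolytic enzyme ALDOC by 5.95 ± 0.32 and PGK1 by 2.62 ± 0.20. Without U87MG replicate 3 the parental PGK1 difference was 0.96 and that of BNIP3 0.89, both under 2-fold. Without that library PDK1 and ANKRD37 appeared, at parental differences of 0.40 and -0.01, and that of EGLN3 passed 2-fold at -1.07. SLC2A1, a glucose transporter, was the 1 listed gene that appeared, at 1.11. It reversed without U251MG replicate 2 or U87MG replicate 3, with parental differences of -1.09 and -1.52. The PGK1 difference was larger in the resistant than in the parental lines, where it was 1.27 (change 1.35 ± 0.29, adjusted p = 0.0022, limma). GAPDH, often used as a constant reference gene, was also higher in U87TR by 1.41 ± 0.13.

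The core of the hypoxia response element, ACGTG read on either strand, was looked for in the 250 bases upstream of each RefSeq start. It was present for 12 of the 27 glycolysis and hypoxia genes with an entry (44.4%), beside 18.7% of all 27305 upstream stretches and 23.6% of those of tested genes. A match describes these letters and not a bound site. CA9 and BNIP3, a hypoxia-induced mitophagy receptor that was higher in U87TR by 2.52 ± 0.34, are shown with the core in capitals (RefSeq, GRCh38.p14). CA9 is read on the plus strand at chr9:35673678-35673927, and BNIP3 on the minus strand at chr10:131981924-131982173, where 2 matches overlap on opposite strands.
CA9: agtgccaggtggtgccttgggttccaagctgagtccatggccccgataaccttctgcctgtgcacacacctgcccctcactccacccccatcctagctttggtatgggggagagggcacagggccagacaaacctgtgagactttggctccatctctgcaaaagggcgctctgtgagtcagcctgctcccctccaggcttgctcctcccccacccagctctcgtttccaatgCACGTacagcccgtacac
BNIP3: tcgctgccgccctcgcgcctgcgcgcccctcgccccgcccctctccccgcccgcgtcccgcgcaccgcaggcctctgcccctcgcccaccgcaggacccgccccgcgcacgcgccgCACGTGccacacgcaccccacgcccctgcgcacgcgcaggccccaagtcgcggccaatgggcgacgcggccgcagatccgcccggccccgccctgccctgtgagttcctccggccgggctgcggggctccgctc

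Metallothioneins, small proteins that bind zinc, copper and cadmium, were higher in U87TR in each of the 7 members tested, with a median of 2.48 and a parental median of 2.5, beside 25.9% of all genes higher. Of the 7, 3 passed the filter through U87TR alone and so had to be higher. MT2A measured 3052, 3257 and 3701 FPKM in U87TR, against 738, 761 and 784 FPKM in U251TR. Its difference of 2.13 ± 0.11 was smaller than the parental 3.25. MT1E measured 570, 548 and 617 FPKM in U87TR, against 0, 0.06 and 0 FPKM in U251TR, while U87MG had 393, 408 and 339 FPKM, against 23.5, 39.0 and 27.2 FPKM in U251MG. The MT1E gap was thus wider in the resistant lines, with U251TR at or near 0 where its parent was not. MT3, the metallothionein best known from brain, was the 1 member whose difference appeared rather than persisted, at 1.2 ± 0.33 in the resistant and -0.81 in the parental contrast. Without U251MG replicate 1 or U87MG replicate 3 its parental difference was -1.05 or -1.12, past 2-fold, which makes it a reversal. Metallothionein genes are near-identical copies of each other, so reads may be split between them and single values are uncertain. The metal response element core, TGCNCNC on either strand, occurred in both members with a RefSeq entry, MT2A with 7 matches and MT1X with 4, and in 48.4% of all upstream stretches. Both are shown because this element carries metal induction in the family, with the core in capitals and both genes on the plus strand (RefSeq, GRCh38.p14, chr16:56608334-56608583 for MT2A and chr16:56682220-56682469 for MT1X).
MT2A: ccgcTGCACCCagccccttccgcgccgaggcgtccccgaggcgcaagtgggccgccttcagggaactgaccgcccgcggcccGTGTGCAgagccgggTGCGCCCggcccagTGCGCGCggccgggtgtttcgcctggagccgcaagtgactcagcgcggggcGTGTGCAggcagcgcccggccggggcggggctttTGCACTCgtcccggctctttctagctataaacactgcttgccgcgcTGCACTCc
MT1X: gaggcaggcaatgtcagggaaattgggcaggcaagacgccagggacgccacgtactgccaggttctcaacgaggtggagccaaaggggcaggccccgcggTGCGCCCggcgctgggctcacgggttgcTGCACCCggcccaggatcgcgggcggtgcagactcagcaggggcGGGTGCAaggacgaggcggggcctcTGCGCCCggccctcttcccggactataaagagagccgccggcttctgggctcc

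MHC class II genes display peptides to helper T cells and are switched on by the coactivator CIITA. All 11 members tested were higher in U87TR, beside 25.9% of all genes, and all 11 differences persisted, beside 20.2%. Of these, 9 passed the expression filter through U87TR libraries alone, so they had to differ. CIITA measured 9.41, 9.15 and 9.55 FPKM in U87TR, against 0.39, 0.23 and 0.36 FPKM in U251TR. CD74, the invariant chain, measured 232, 199 and 214 FPKM in U87TR, against 1.04, 0.58 and 1.54 FPKM in U251TR. HLA-DRA measured 51.5, 47.7 and 50.8 FPKM in U87TR, against 0.95, 0.43 and 0.58 FPKM in U251TR. For CD74 the resistant gap was narrower than the parental one, with a change of -0.60 ± 0.21 on the log2 scale, and U251MG had 0.13, 0 and 0.13 FPKM. HLA genes are variable and resemble each other, so single values are uncertain. CD74 carries 1 CCAAT box, in capitals below, the element at the Y box of class II promoters, in the 250 bases at chr5:150412911-150413160 on the minus strand (RefSeq, GRCh38.p14). CCAAT on either strand occurred in 8 of the 9 listed class II genes with an entry and in 33.0% of all upstream stretches.
CD74: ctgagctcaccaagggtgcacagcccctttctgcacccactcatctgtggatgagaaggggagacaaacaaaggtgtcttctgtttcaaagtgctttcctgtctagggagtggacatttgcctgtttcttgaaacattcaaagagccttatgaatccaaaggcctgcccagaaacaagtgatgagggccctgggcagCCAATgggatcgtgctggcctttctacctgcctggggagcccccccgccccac

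Because class II genes mark immune cells, the immune markers were checked. PTPRC, the pan-leukocyte marker, measured 0.02, 0.05 and 0.02 FPKM in U87TR, against 0.01 FPKM in each U251TR library. Of 17 immune markers in the table, 4 reached 1 FPKM in any resistant library, and the summed level was 335 to 365 FPKM in U87TR, against 4.31 to 7.68 FPKM in U251TR. Most of that sum was CD68, a lysosomal protein, with 344, 313 and 340 FPKM in U87TR, against 2.90, 4.41 and 5.91 FPKM in U251TR. Endothelial markers, 9 in the table, summed to 2.08 to 2.53 FPKM in U87TR, against 46.6 to 50.8 FPKM in U251TR.

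Other persistent differences with U87TR higher were in genes of several roles, while collagens went both ways. Of 25 collagen genes tested, 11 were higher and 12 lower in U87TR, beside 25.9% and 48.3% of all genes. TFPI2, a secreted protease inhibitor, measured 266, 362 and 389 FPKM in U87TR, against 0, 0.02 and 0 FPKM in U251TR. COL6A3, a collagen VI chain, measured 487, 414 and 359 FPKM in U87TR, against 0.10, 0.03 and 0.03 FPKM in U251TR, and COL1A2, a collagen I chain, differed by 7.72 ± 0.18. COL18A1 and COL4A1, chains of basement membrane collagens, were lower in U87TR, at -6.74 ± 0.10 and -5.35 ± 0.18. MIF, a cytokine, measured 699, 702 and 776 FPKM in U87TR, against 1.59, 2.44 and 1.64 FPKM in U251TR. CYBA, a subunit of the NADPH oxidase, RAC2, a small GTPase of that complex, and CAPG, which caps actin filaments, differed by 7.69 ± 0.10, 7.85 ± 0.12 and 7.39 ± 0.11. The 7SL RNA copy RN7SL3 had the highest difference among named genes, 9.64 ± 0.31, but its copies are near-identical and its value is uncertain.

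Neural stem genes were lower in U87TR, mostly in differences that the parents already had, while astrocyte genes went both ways. Of 29 neural stem and proneural genes, 17 were tested, and all 17 were lower in U87TR with a median of -2.53, beside a parental median of -3.07. Of these, 14 persisted, and 13 of the 17 passed the filter through U251TR alone, so those had to be lower. SOX2, a master regulator of neural stem cells, measured 0.30, 0.25 and 0.06 FPKM in U87TR, against 114, 114 and 112 FPKM in U251TR. Its difference of -6.58 ± 0.10 was smaller than the parental one of -7.78, and U251MG had 204 to 242 FPKM. FABP7, a fatty acid carrier of radial glia, measured 0.28, 0.09 and 0.20 FPKM in U87TR, against 148, 136 and 160 FPKM in U251TR. GFAP, the intermediate filament that defines astrocytes, measured 1.78, 2.28 and 1.19 FPKM in U87TR, against 392, 381 and 415 FPKM in U251TR. U251MG had 20.3, 29.9 and 18.3 FPKM of GFAP, and the resistant gap was wider than the parental one, with a change of -3.41 ± 0.32. Of 12 astrocyte genes tested, 8 were lower and 4 higher in U87TR, beside 48.3% and 25.9% of all genes. The filter was passed through U251TR alone by 5 of the 12 and through U87TR alone by 1. The higher ones were ALDOC, at 5.95 and also a glycolysis gene, the gap junction gene GJA1 at 1.66, the transcriptional inhibitor ID3 at 1.5 and the secreted chaperone CLU at 1.44. ID3 appeared, but without U251MG replicate 2 its change was 0.96, under 2-fold. Among the lower ones, S100B was at 0, 0.05 and 0.10 FPKM in U87TR, against 2.31, 1.30 and 2.07 FPKM in U251TR. AQP4, a water channel, did not pass the filter and was at 0 in 5 of the 6 resistant libraries. In U87TR libraries S100B was thus at or below 0.10 FPKM, whereas GFAP was low and above 1 FPKM. THY1, a surface glycoprotein, measured 0.06, 0.21 and 0.10 FPKM in U87TR, against 257, 258 and 295 FPKM in U251TR. MDK, a heparin-binding growth factor, and IGFBP2, which binds insulin-like growth factors, differed by -7.48 ± 0.17 and -7.36 ± 0.14.

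Receptor and developmental families were mostly lower in U87TR. Of 27 receptor tyrosine kinases tested, 20 were lower, beside 48.3% of all genes, 4 were higher and 14 persisted, with a median of -1.39. The filter was passed through U251TR alone by 8 of the 27 and through U87TR alone by 1, which fixed their direction. EPHB4, a receptor for ephrins, was lower by -4.17 ± 0.08 and PTK7, a pseudokinase of the WNT polarity branch, by -5.01 ± 0.09, against -2.19 in the parents, while PDGFRB was higher by 3.11 ± 0.17. EGFR was an exception that appeared: it measured 23.3, 20.1 and 16.6 FPKM in U87TR, against 47.8, 42.5 and 44.9 FPKM in U251TR, with a parental difference of 0.19. After median-of-ratios scaling the EGFR difference was under 2-fold. AXL also appeared, in the opposite direction, at 1.85 ± 0.22, but without U251MG replicate 1 its change was 0.97, under 2-fold. Of 17 Notch pathway genes tested, 14 were lower and 11 persisted, and 7 of the 17 had passed the filter through U251TR alone, with NOTCH2 at -2.74 ± 0.09 and NOTCH3 the other way at 2.48 ± 0.17. Of 26 HOX cluster genes tested, 18 were lower and 5 higher, and 13 persisted, but 10 of the 26 had passed through U251TR alone and 2 through U87TR alone.

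Interferon-stimulated genes, the antiviral response to interferon, were mostly lower in U87TR, in part without a matching parental difference. Of 32 genes tested, 27 were lower and 5 higher in U87TR, a share of 100% called beside 74.2% of all genes. Their median was -0.86, against 0.26 in the parents. After median-of-ratios scaling, 20 were lower and 5 higher with a median of -0.61. Of the 32, 14 were lower by at least 2-fold, and 8 appeared, 3 persisted, 2 vanished and 1 reversed. BST2, which tethers budding virus, persisted at -4.37 ± 0.14, against -2.57 in the parents, and the antiviral GTPase MX1 at -2.80 ± 0.18, against -1.67. ISG15, a ubiquitin-like modifier, measured 145, 134 and 156 FPKM in U87TR, against 906, 827 and 936 FPKM in U251TR. The parents lay lower, at 36.7, 36.7 and 35.1 FPKM in U87MG, against 64.8, 54.1 and 61.4 FPKM in U251MG. IFIT1, which binds viral RNA, measured 56.6, 49.0 and 53 FPKM in U87TR, against 118, 105 and 99.1 FPKM in U251TR, with 1.96 to 4.53 FPKM across the 6 parental libraries. Its difference sat at the 2-fold threshold, and was -0.93 without U251TR replicate 1 and -0.95 without U87TR replicate 2. Both resistant lines therefore stood above both parents for ISG15 and IFIT1, and U251TR stood highest. DDX58, which encodes the RNA sensor RIG-I, differed by -2.29 ± 0.12 and IFIH1, which encodes MDA5, by -2.41 ± 0.11. Without U87MG replicate 1 the parental IFIH1 difference was -1.02, so that it persisted. IFI44L reversed, at -1.29 ± 0.13 in the resistant and 2.13 in the parental contrast. OASL went against the group, with 99.2, 92.1 and 95.4 FPKM in U87TR, against 11.4, 8.86 and 11.2 FPKM in U251TR. IFNB1, the gene of interferon beta, averaged 10.8 FPKM in U251TR and 0.207 FPKM in U251MG, and was listed at 0 in every U87TR and U87MG library.

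NF-kB factors and feedback genes, which drive and restrain inflammatory transcription, were also mostly lower. Of 16 tested, 11 were lower and 2 higher in U87TR, or 81.3% called beside 74.2% of all genes, with a median of -0.99 against 0.04 in the parents, and median-of-ratios scaling left both counts as they were. Of the 16, 5 appeared, 4 vanished, 2 reversed and 1 persisted. RELB, a subunit of the alternative pathway, measured 12.5, 12.8 and 13.9 FPKM in U87TR, against 38.5, 38.1 and 42.5 FPKM in U251TR. TRAF1, an adaptor of tumour necrosis factor receptors, differed by -2.78 ± 0.19. SOD2, the mitochondrial superoxide dismutase, reversed: it measured 257, 231 and 211 FPKM in U87TR, against 563, 539 and 568 FPKM in U251TR, and 187, 211 and 208 FPKM in U87MG, against 55.1, 76.5 and 55.7 FPKM in U251MG. After median-of-ratios scaling the SOD2 difference vanished rather than reversed. The deubiquitinase TNFAIP3 reversed as well, at -1.54 ± 0.22 and 1.11, the parental value being 0.82 without U251MG replicate 3. CCL2, a chemokine for monocytes, appeared with 5.02, 5.68 and 6.35 FPKM in U87TR, against at least 200 FPKM in each U251TR library.

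Among targets of NRF2, the regulator of antioxidant genes, 17 of 26 tested were lower in U87TR and 5 higher, beside 48.3% and 25.9% of all genes, with a median of -0.88 against 0.39 in the parents. Median-of-ratios scaling gave 15 lower and 7 higher. NQO1, a quinone reductase, measured 344, 385 and 413 FPKM in U87TR, against 907, 916 and 1026 FPKM in U251TR. It appeared, but without U87MG replicate 3 the parental difference reached 1.00, which makes it a reversal. The thioredoxin reductase TXNRD1 and the glutathione synthesis subunit GCLM appeared likewise, at -1.53 ± 0.22 and -1.70 ± 0.11. AKR1B10, an aldo-keto reductase, reversed at -1.48 ± 0.18 in the resistant and 1.70 in the parental contrast. Members went the other way too: HMOX1, which degrades haem, measured 173, 157 and 165 FPKM in U87TR, against 25.1, 25.4 and 26.1 FPKM in U251TR, and the efflux pump ABCC2 differed by 5.01 ± 0.12. AKR1C genes resemble each other, and their single values are uncertain.

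Iron storage and ferroptosis genes split. FTL, the ferritin light chain, measured 2340, 2471 and 2811 FPKM in U87TR, against 10563, 11131 and 11472 FPKM in U251TR, with a parental difference of 0.73. FTH1, the ferritin heavy chain, vanished as a difference: it measured 8121, 8469 and 9256 FPKM in U87TR, against 8563, 8968 and 9960 FPKM in U251TR, where the parental difference had been 1.51. SLC7A11, the cystine transporter that feeds glutathione, persisted at -2.59 ± 0.28, and ACSL4, which makes membrane lipids prone to peroxidation, persisted at 1.76 ± 0.13. The parental ACSL4 difference was under 2-fold, at 0.99, 0.98 and 0.90, without U251MG replicate 1, U251MG replicate 2 or U87MG replicate 1. GPX4, which detoxifies lipid peroxides, measured 264, 268 and 279 FPKM in U87TR, against 279, 306 and 345 FPKM in U251TR, and did not pass (adjusted p = 0.054, limma). Its sign depends on the scaling, as does that of FTH1. The share called, 70.8% of the 24 defence genes tested and 75% of the 20 driver genes, was near the 74.2% of all genes. Of the defence genes 12 were lower and 5 higher, or 10 and 7 after median-of-ratios scaling. Of the driver genes 9 were higher and 6 lower, or 14 and 5 after that scaling.

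**Figure D2:**
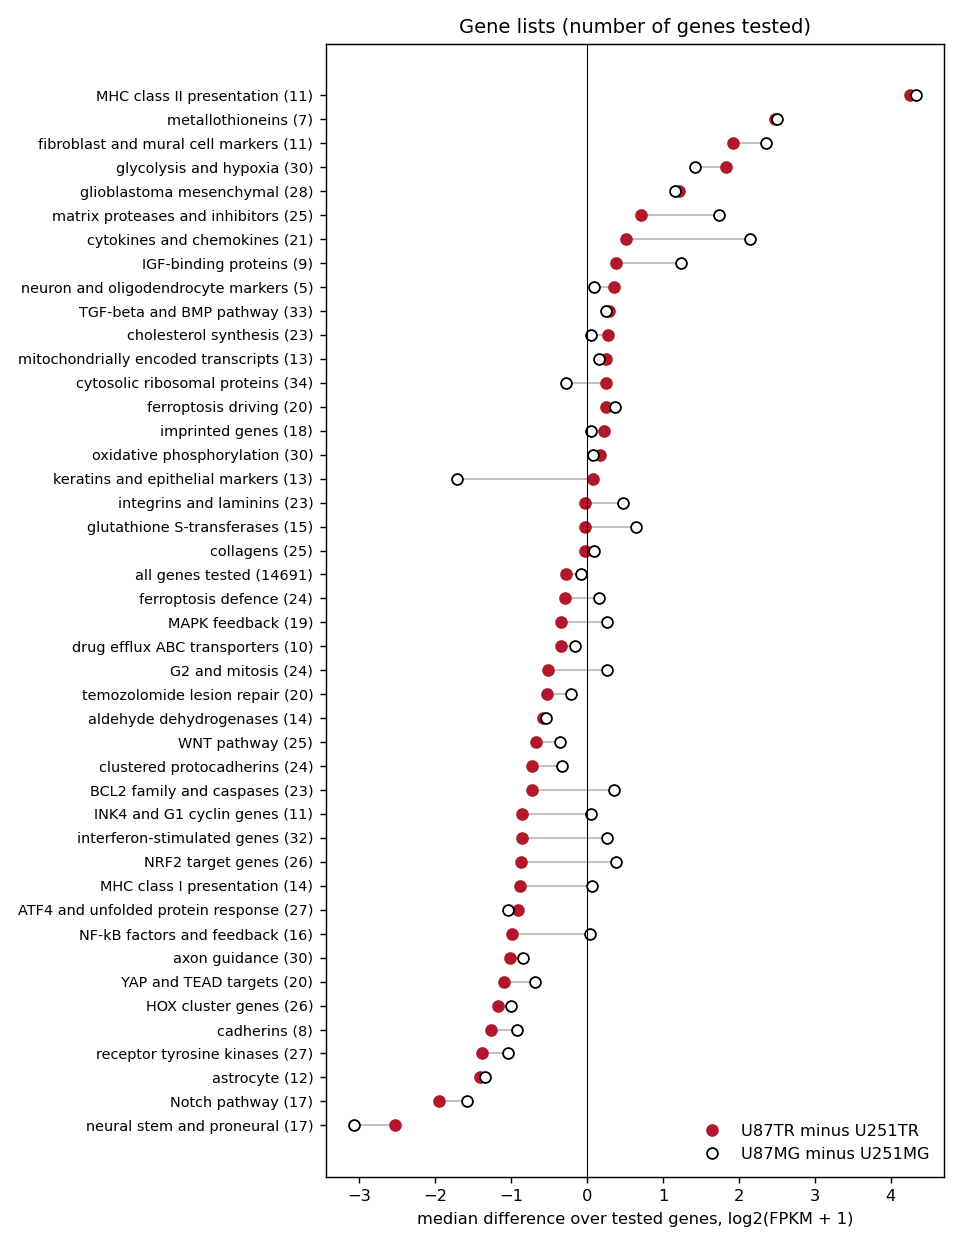
Median difference over the tested genes of each list, U87TR minus U251TR in red and U87MG minus U251MG in white, in log2(FPKM + 1), for the lists shown, each with at least 5 tested genes, and for all 14691 genes. Class II (4.26 and 4.34) and metallothionein (2.48 and 2.5) lists keep their parental position, and the neural stem list stays below 0 (-2.53 and -3.07). Interferon-stimulated, NF-kB and NRF2 lists lie below 0 in the resistant and above 0 in the parental contrast. Other tested lists cross 0 too, among them BCL2 family and caspase genes (-0.73 and 0.36) and G2 and mitosis genes (-0.52 and 0.26). Ferroptosis defence (-0.29 and 0.16) also does, but its resistant median lies near the -0.28 of all genes. After median-of-ratios scaling it was -0.006, beside -0.48 for BCL2 family and caspase genes and -0.23 for G2 and mitosis genes.

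Genes of cell cycle arrest, stress and cell death fell into several classes. CDKN1A, the cell cycle inhibitor p21, vanished as a difference, with 137, 137 and 141 FPKM in U87TR, against 135, 110 and 148 FPKM in U251TR, where U251MG had 34.7 to 57.0 FPKM. The death receptor FAS vanished too, at -0.55 ± 0.10 in the resistant and 2.02 in the parental contrast. GDF15, a stress cytokine, appeared with 18.5, 20.6 and 21.9 FPKM in U87TR, against 588, 502 and 684 FPKM in U251TR. In U251MG its replicate 2 stood apart, at 37.8 FPKM beside 324 and 309 FPKM. Without that library the parental difference was -1.67 in place of -0.66, so that GDF15 persisted rather than appeared. The inflammatory caspases CASP1 and CASP4 reversed, at -1.64 ± 0.13 and -1.88 ± 0.10 in the resistant and 2.47 and 1.19 in the parental contrast.

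Mesenchymal genes, a glioblastoma expression subtype, were spread over all 4 classes. Of 28 tested, 17 were higher and 6 lower in U87TR, beside 25.9% and 48.3% of all genes. Their median was 1.21, close to the parental 1.16. Of the 28, 10 persisted, 5 appeared, 5 reversed and 2 vanished, beside 20.2%, 5.79%, 0.436% and 4.38% of all genes. FN1, fibronectin, persisted with 2446, 1924 and 1972 FPKM in U87TR, against 68.1, 58.4 and 62.5 FPKM in U251TR. LGALS1, a galectin, persisted at 3.19 ± 0.12. S100A10, a calcium-binding protein that pairs with annexin A2, appeared with 1464, 1374 and 1512 FPKM in U87TR, against 150, 168 and 169 FPKM in U251TR. Its parental difference passed 2-fold without U87MG replicate 1 or 2, at 1.07 and 1.02, so that S100A10 persisted. CHI3L1, a secreted glycoprotein that marks mesenchymal glioblastoma, reversed: it measured 502, 463 and 495 FPKM in U87TR, against 3028, 2138 and 2746 FPKM in U251TR. In the parents it measured 69.3, 86.0 and 85.5 FPKM in U87MG, against 2.07, 2.34 and 1.63 FPKM in U251MG. Both resistant lines thus exceeded both parents for CHI3L1. IL13RA2, a decoy receptor for interleukin 13, reversed with 13.9, 14.4 and 15.9 FPKM in U87TR, against 97.0, 90.0 and 86.5 FPKM in U251TR. SPP1, which encodes osteopontin, CEBPB, a transcription factor, and TNC, the matrix protein tenascin C, also reversed, at -2.01 ± 0.18, -1.23 ± 0.22 and 1.19 ± 0.10. Without U251MG replicate 2 the parental CEBPB difference was 0.86, under 2-fold. CD44, a hyaluronan receptor, vanished, with 544, 522 and 455 FPKM in U87TR, against 455, 484 and 491 FPKM in U251TR.

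Several differences appeared or reversed with very low values in U87TR. CD81, a tetraspanin, measured 0.08, 0.29 and 0.01 FPKM in U87TR, against 145, 149 and 164 FPKM in U251TR, while U87MG had 169, 170 and 183 FPKM and U251MG 156, 198 and 155 FPKM. The U87TR libraries lay apart from the other 9. PHLDA2, an appeared difference and an imprinted growth regulator, measured 1.42, 1.67 and 2.06 FPKM in U87TR, against 71.5, 65.7 and 75.2 FPKM in U251TR. MEG3, an imprinted long noncoding RNA, reversed: it was listed at 0 in U87TR and measured 46.5, 27.2 and 25.6 FPKM in U251TR, with 23, 24.7 and 21.1 FPKM in U87MG, against 9.47, 6.70 and 8.09 FPKM in U251MG. EHD2, a protein of caveolae, reversed too: it was listed at 0 in U87TR and measured 14, 13.7 and 14.2 FPKM in U251TR, with 57.5 to 83.1 FPKM in U87MG, against 16.2 to 19.7 FPKM in U251MG.

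Others appeared with high values in U251TR. MSMP, a small secreted chemokine-like protein, was listed at 0 in U87TR and measured 280, 161 and 298 FPKM in U251TR, where the parents had 0 in U87MG and 0.49 to 0.69 FPKM in U251MG. S100A9, a calcium-binding inflammatory protein, measured 0.11, 0.11 and 0.10 FPKM in U87TR, against 80.9, 44.1 and 71.2 FPKM in U251TR. The cell adhesion gene CADM3, the matrix gene SPARCL1 and the glucuronyltransferase gene B3GAT1 differed by -5.56 ± 0.11, -6.41 ± 0.14 and -4.75 ± 0.08. In all 6 parental libraries CADM3 stayed at or below 0.18 FPKM.

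As deposited, fewer appeared with U87TR higher. CLEC3B, which encodes tetranectin, measured 34.2, 23 and 23.9 FPKM in U87TR, against 0.06, 0.12 and 0.18 FPKM in U251TR. NRG1, which encodes neuregulin, measured 23, 25.1 and 22.1 FPKM in U87TR, against 2.83, 3.12 and 3.03 FPKM in U251TR. U251MG had 52.0, 13.7 and 51.9 FPKM of NRG1, and each stood above every U251TR library. C10orf118 measured 79.5, 70.0 and 60.3 FPKM in U87TR, against 7.91, 6.03 and 5.10 FPKM in U251TR. Without U87MG replicate 1 its parental difference was -1.06, which makes it a reversal.

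**Figure D3:**
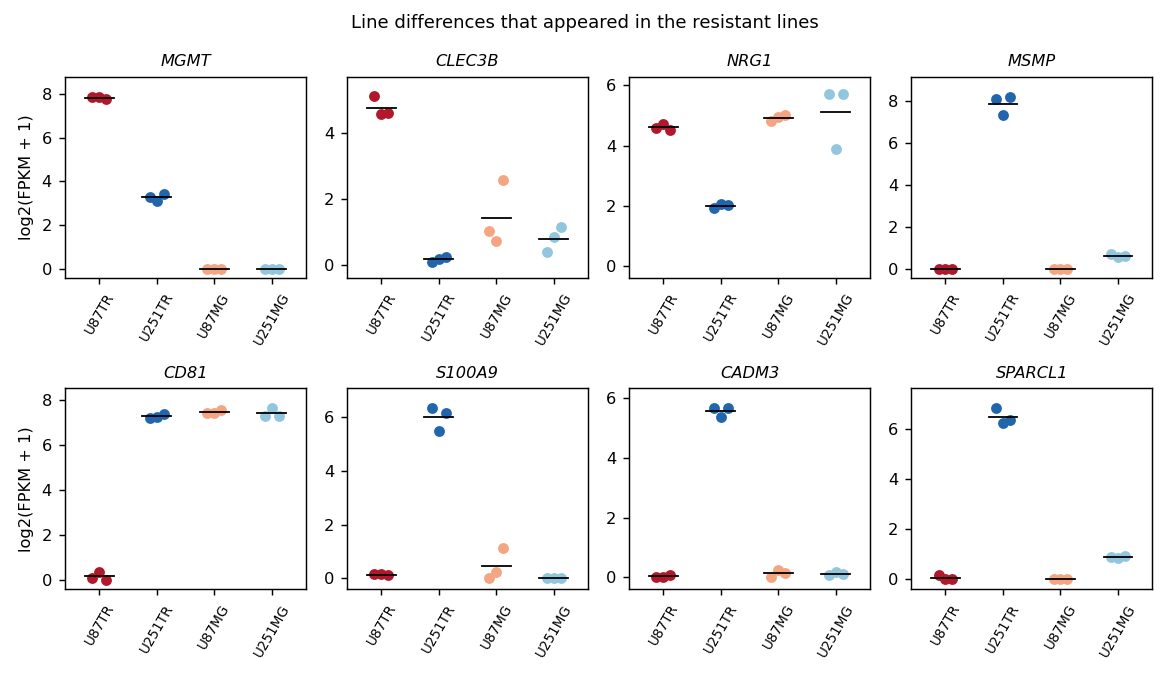
Expression of 8 genes whose line difference appeared, as log2(FPKM + 1) on the y axis, with 1 point per library, a line at the mean and the 4 lines on the x axis. MGMT is raised in both resistant lines, CD81 is near 0 in U87TR alone among the 4 lines, and MSMP, S100A9, CADM3 and SPARCL1 are high in U251TR.

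Vanished differences included inflammatory and complement genes that had been higher in U87MG. IL1B, which encodes interleukin 1 beta, measured 3.64, 5.45 and 5.98 FPKM in U87TR, against 2.36, 1.68 and 2.21 FPKM in U251TR. The parents had 100, 128 and 121 FPKM in U87MG, against 0, 0.09 and 0.04 FPKM in U251MG, and the change in the difference was -5.86 ± 0.22 on the log2 scale. The resistant IL1B difference was just under 2-fold, and was 1.02 without U251TR replicate 1 and 1.13 without U87TR replicate 1. C3, the central complement component, measured 63.5, 48.8 and 45.8 FPKM in U87TR, against 72.7, 59.4 and 69.5 FPKM in U251TR, and U251MG had had 1.80 to 4.05 FPKM. C1S, a complement protease, differed by 0.70 ± 0.11 in the resistant contrast, against 5.12 in the parental one.

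Vanished differences that had been lower in U87MG included intermediate filament and developmental genes. NES, which encodes nestin, measured 24.6, 25.6 and 26.3 FPKM in U87TR, against 45.3, 39.8 and 42.8 FPKM in U251TR, whereas U251MG had 178 to 230 FPKM. KRT80, a keratin, measured 47.2, 46.3 and 45.0 FPKM in U87TR, against 28.0, 35.6 and 33.9 FPKM in U251TR, with 10.3 to 12.1 FPKM in U87MG, against 148 to 297 FPKM in U251MG. SCG2, a secretory granule protein, had a resistant difference of -0.81 ± 0.10 and a parental one of -4.58.

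Reversed differences with U87TR higher were fewer in the values as deposited. OLFML2A, an extracellular matrix protein, measured 30.0, 23.6 and 22.0 FPKM in U87TR, against 0.74, 0.67 and 0.54 FPKM in U251TR, with 7.09, 8.42 and 12.8 FPKM in U87MG, against 16.5, 26.2 and 17.9 FPKM in U251MG. Its parental difference fell below 2-fold without U251MG replicate 2, U87MG replicate 1 or U87MG replicate 2, at -0.84, -0.87 and -0.98. EDIL3, an integrin ligand, reversed at 1.69 ± 0.15 in the resistant and -2.90 in the parental contrast, and KRT7, a keratin, at 1.96 ± 0.22 and -2.22. SCD, which desaturates fatty acids, measured 162, 150 and 146 FPKM in U87TR, against 57.5, 55.1 and 62.6 FPKM in U251TR, with 32.6 to 82.7 FPKM in U87MG, against 123 to 301 FPKM in U251MG.

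**Figure D4:**
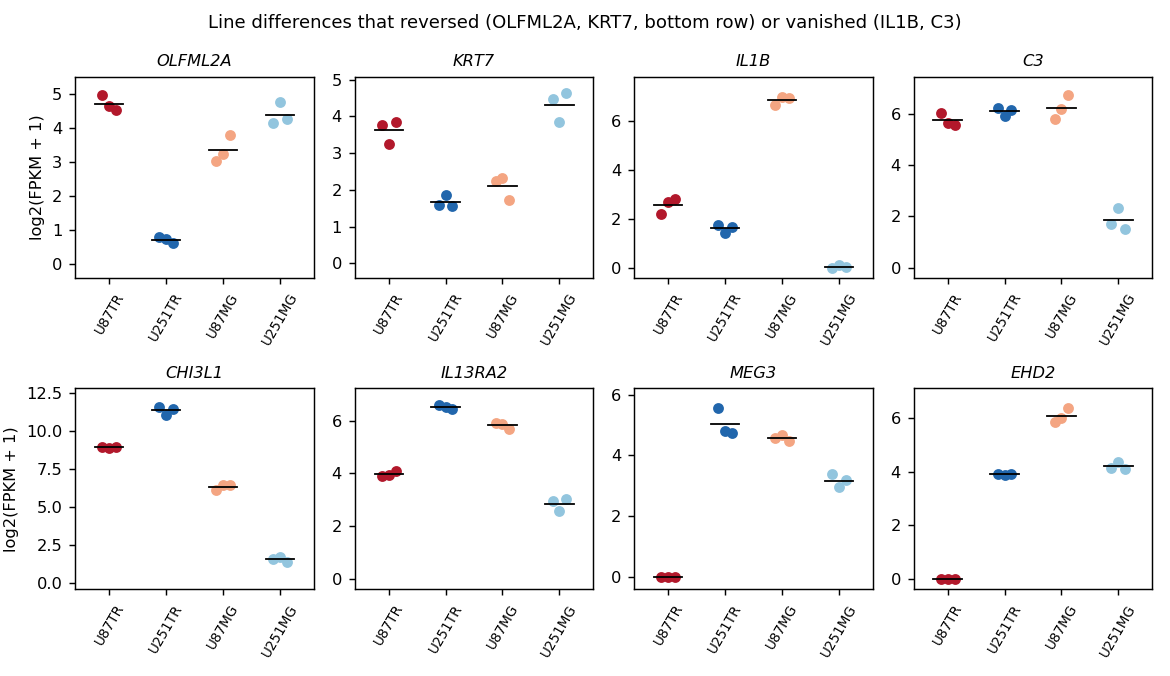
Expression of 8 genes whose line difference reversed or vanished, as log2(FPKM + 1) on the y axis, with 1 point per library, a line at the mean and the 4 lines on the x axis. CHI3L1 and IL13RA2 are higher in U251TR than in U87TR and higher in U87MG than in U251MG, and IL1B is high in U87MG alone among the 4 lines.

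Some genes were detected in 1 resistant line and near 0 in the other. A gene counted as on in a line at 10 FPKM or more in all 3 of its libraries, and as off below 0.1 FPKM in all 3. By that rule 63 genes were on in U87TR and off in U251TR, and 35 of them were also on in U87MG and off in U251MG. Another 86 were on in U251TR and off in U87TR, of which 21 were also on in U251MG and off in U87MG. Among the 63, AHR, the aryl hydrocarbon receptor, averaged 52.6 FPKM in U87TR and 0.0133 FPKM in U251TR, and TNFSF9, a T cell costimulatory ligand, averaged 28.9 FPKM in U87TR and was listed at 0 in U251TR. None of the 63 averaged under 1 FPKM in both parents, whereas 6 of the 86 did: B3GAT1, BPIFB4, CADM3, MSMP, NUDT10 and PPP2R2C.

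The genes off in U87TR included a run of neighbours on chromosome 9, singled out after the values were seen. In the RefSeq order, 20 consecutive genes present in the table, starting with MLLT3 and ending with DMRTA1, stayed at or below 0.01 FPKM in every U87TR and U87MG library. Of these, 9 were tested, and their U251TR means ran from 1.55 to 113 FPKM. MTAP, which salvages methionine from polyamine synthesis, measured 0, 0.01 and 0 FPKM in U87TR, against 113, 111 and 115 FPKM in U251TR. KLHL9, an adaptor of a ubiquitin ligase, averaged 36.8 FPKM in U251TR and was listed at 0 in U87TR, and FOCAD averaged 17.3 FPKM in U251TR and 0.00333 FPKM in U87TR. IFNB1 lies within the same run. DNA was not measured here.

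Zinc finger genes of chromosome 19 were another block, singled out after their values were seen. Of 202 tested ZNF genes on that chromosome, 168 were lower and 9 higher in U87TR, and 123 (60.9%) were lower by at least 2-fold, beside 22.5% of all genes. ZNF genes on other chromosomes were lower by at least 2-fold in 41.7% of 204, and other genes of chromosome 19 in 17.7% of 724. The chromosome 19 median was -1.32 in the resistant and -1.40 in the parental contrast, and 110 of the 202 persisted. ZNF83, ZNF320 and ZNF331 averaged 23.5, 14.3 and 16.3 FPKM in U251TR and were listed at 0 in U87TR.

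Whole chromosomes also leaned one way, over the 13261 tested genes with a RefSeq chromosome. The median was -0.85 on chromosome 6, where it had been -0.67 in the parents and where 34.8% of genes persisted. On chromosome 11 the median was -0.80, against -0.22 in the parents, and 12% of its 722 genes appeared, beside 5.79% of all genes. On chromosome 7 the median was -0.62, against -0.17 in the parents. On chromosome 18 the median was 0.12, where it had been 0.71 in the parents. Genes of 1 chromosome share its copy number, which was not measured, so they are not independent.

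**Figure D5:**
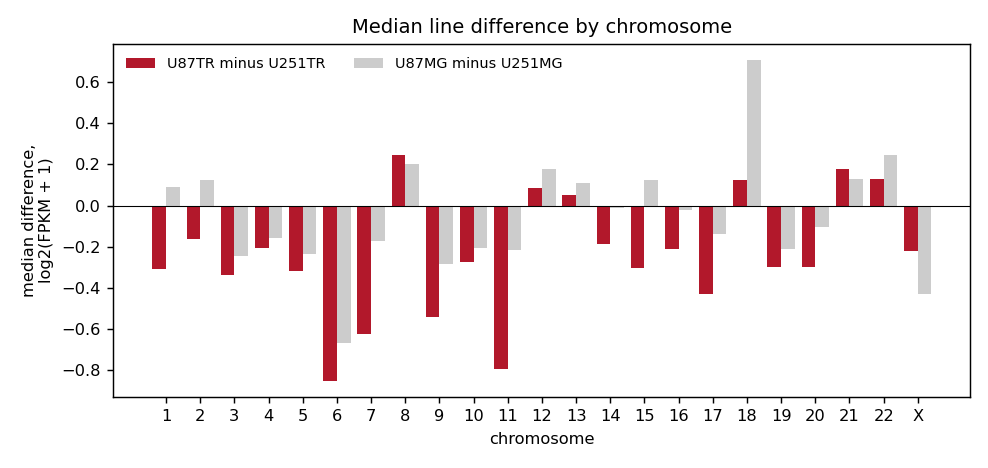
Median difference over the tested genes of each chromosome, U87TR minus U251TR in red and U87MG minus U251MG in grey, in log2(FPKM + 1). Chromosome 6 is low in both contrasts, chromosomes 7 and 11 lie lower in the resistant contrast, and chromosome 18 is high in the parental contrast.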

How the data were processed

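The symbol-level table deposited by the authors holds 1 value per gene and library, and its unit is not stated. The deposited values were read as FPKM, because they are not whole, sum to 695282 to 785754 per library and, multiplied by mean GENCODE transcript length, come to nearly the same total in each library. Per the submitters' processing notes, STAR 2.5.2b and RSEM 1.2.31 were used. The notes and the design text name different genome builds, so no coordinates come from the files. Strandedness is not given in the sources used here, so overlapping antisense genes cannot be told apart. Read depth is unknown.

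Of 31681 rows, 27 date-like symbols were left out. log2(FPKM + 1) was fitted in limma 3.58.1 (R 4.3.3) with 4 group means over 12 libraries, a variance trend and robust moderation, and p-values were adjusted over 14691 genes. A call needed an adjusted p under 0.05, and classes also a log2 size of 1. A further 484 genes reached the filter in the parental libraries alone and were not tested. The fit was tested on simulated data. Pseudocount, filter, scaling, replicate block and leaving out each of 12 libraries were tried.

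Genes were named by size: plain symbols at 10 FPKM or more in the higher line with no overlap between lines, as the largest differences in the comparison, in each class and in each list, plus fixed glioma genes. Other named genes were chosen after their values were seen. Some genes and 1 list are not reported here. Members and lists were chosen with earlier results of these data known. Libraries of a line correlated at rho 0.977 or more, lowest for U251MG replicate 2.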

Additional observations from a re-analysis of the deposited data

Results flagged for a closer look

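The line difference changed between resistant and parental lines, by limma's interaction term at an adjusted p under 0.05, in 174 of the 238 genes named by rule. The 35 with a change of at least 4 on the log2(FPKM + 1) scale are given here as the U87TR minus U251TR difference less the U87MG minus U251MG difference, and the other 139 were smaller. The difference moved toward lower values in U87TR for 24 of them. Among differences that appeared, the changes were MSMP (-7.24), CD81 (-7.14), S100A9 (-6.32), CADM3 (-5.58), SPARCL1 (-5.55), BPIFB4 (-5.23), CCL2 (-4.59), B3GAT1 (-4.52), PHLDA2 (-4.23), GDF15 (-4.13) and CDH11 (-4.09). Among differences that vanished, they were IL1B (-5.86), C3 (-4.76) and C1S (-4.43). Among differences that reversed, they were CHI3L1 (-7.17), MEG3 (-6.45), EHD2 (-5.79), IL13RA2 (-5.55), LY6E (-4.53), CRIP2 (-4.39), SPP1 (-4.29), CASP1 (-4.11) and CARD16 (-4.06). The difference moved toward higher values in U87TR for 11. The appeared ones were MGMT (4.54) and C10orf118 (4.21). The vanished ones were KRT80 (4.71), PTHLH (4.38), FAM198B (4.33) and TUFT1 (4.01). The reversed ones were OLFML2A (5.01), EDIL3 (4.59), KRT7 (4.19) and MYO15B (4.09). MT1E (5.50) persisted and widened. CX3CL1 (-4.00) persisted and widened. In U251MG replicate 2, GDF15 was low and CCL2 was high beside the other U251MG libraries. Without that replicate both changes kept their direction and passed, but GDF15 then persisted rather than appeared, its parental difference being -1.67. Without 1 library, CDH11 (U251MG replicate 3), C10orf118 (U87MG replicate 1), OLFML2A (U251MG replicate 2, U87MG replicate 1 or 2) and IL1B (U251TR replicate 1 or U87TR replicate 1) also changed class.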

How the results depend on the processing

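Leaving out each library in turn gave 10268 to 11467 genes that differed and 4934 to 5041 that did so at least 2-fold, with 2932 to 2999 persisting, 832 to 911 appearing, 602 to 798 vanishing and 58 to 69 reversing. A pseudocount of 5 FPKM, which shrinks low genes, gave 2536 genes at 2-fold, 1430 persisting, 386 appearing, 334 vanishing and 19 reversing. A pseudocount of 0.1 FPKM gave 122 reversing, and a filter of 5 FPKM, which tests fewer genes, gave 559 appearing and 457 vanishing. A filter of 1 FPKM in 3 of all 12 libraries gave 851 appearing and 817 vanishing. Fitting the 6 resistant libraries alone gave 11532 genes that differed and 4966 that did so at least 2-fold. Of 7310 recomputed gene values, 7248 kept their direction and side of the threshold, 40 lost the call, 15 gained it and 7 changed sign. Leaving out a parental library, or changing the filter or variance model, cannot alter the size of a resistant difference. Named genes were also mostly picked by size, so this count is a weak test of stability. Classes were less stable: of the 238 genes named by rule, 209 kept their class with a pseudocount of 5 FPKM, 212 with median-of-ratios scaling, 222 with quantile normalization, 225 with a pseudocount of 0.1 FPKM and 226 without U251MG replicate 2. The sign changes were in resistant differences near 0: CCDC80 at 0.22 with median-of-ratios scaling and 0.20 with quantile normalization, FTH1 at 0.20 and 0.36 under the same settings, GPX4 at 0.10 with median-of-ratios scaling, CD44 at -0.18 with quantile normalization, and CDKN1A, which ran from -0.031 without U251TR replicate 2 to 0.18 without U251TR replicate 3. The replicate numbers paired the libraries weakly in the resistant lines and not in the parental ones. Same-numbered libraries correlated in their deviations at 0.115, 0.060 and 0.153 in the resistant lines, above the -0.136 to 0.040 of differently numbered pairs. In the parental lines they correlated at -0.034, 0.006 and -0.005, within the -0.044 to 0.042 of differently numbered pairs. With a replicate block 10870 genes differed and 4968 did so at 2-fold, with 2973 persisting, 854 appearing, 641 vanishing and 64 reversing. Without read counts, the precision of low values is unknown.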
